A study of Homo sapiens with 12 samples.

Results

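The 10 genes described here encode proteins with which tumor cells can act on T and natural killer cells. Most encode ligands of inhibitory or co-stimulatory receptors, and NT5E encodes an enzyme that makes adenosine. The genes were chosen by symbol from the 60649 rows of the raw count table and are CD274, PDCD1LG2, CD276, VTCN1, PVR, NECTIN2, NT5E, LGALS9, TNFSF9, and CD70. RNA was sequenced from 12 libraries of SK-LMS-1 and SK-UT-1B, established uterine leiomyosarcoma (uLMS) cell lines with no engineered change, each line standing for a single tumor. SK-UT-1B was exposed for 72 h to DMSO, the solvent (libraries 4-1 and 4-2), or to MK-0752, gemcitabine, and docetaxel together, called the combination (libraries 3-1 and 3-3). SK-LMS-1 was exposed for 72 h to DMSO (libraries 2-1 and 2-3, DMSO set 2, and libraries 4-1 and 4-2, DMSO set 4), to MK-0752 alone (libraries 2-2 and 2-3), or to the combination (libraries 4-1 and 4-2). MK-0752 inhibits gamma secretase, the protease that releases the active fragment of Notch receptors, gemcitabine is a nucleoside analog, and docetaxel stabilizes microtubules. Per the study's methods, each regimen was given in each line at its own concentration for a preset loss of viability, so the amount of MK-0752 was not matched between MK-0752 alone and the combination, nor between the lines. The labels do not say what the first number of a library marks. In SK-UT-1B it was 4 for both DMSO libraries and 3 for both combination libraries, so it cannot be told apart from the treatment there, nor from the line after the combination. The labels also do not say whether the libraries of a group came from separate cultures, so p-values measure the spread between libraries, which may be technical.

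Checkpoint receptors hold T and natural killer cells in check when they meet their ligands, and tumor cells that carry such ligands can escape attack. CD274 (PD-L1) and PDCD1LG2 (PD-L2) bind the receptor PD-1, and interferon gamma induces both through JAK1, JAK2, and IRF1. CD276 (B7-H3) and VTCN1 (B7-H4) are B7 family members that dampen T cells. PVR and NECTIN2 bind the inhibitory receptors TIGIT and, for PVR, CD96, but also the activating receptor CD226. NT5E (CD73) is an enzyme on the cell surface that makes adenosine, which restrains T cells. LGALS9 encodes galectin-9, a ligand of TIM-3 (HAVCR2). TNFSF9 and CD70 are ligands of the co-stimulatory receptors TNFRSF9 and CD27. All values below are RNA, and surface protein was not measured.

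The libraries held 25250057 to 40709885 counts. Levels are given as CPM, counts relative to library size after TMM scaling, and a difference was called at an absolute log2 fold change (log2FC) of at least 1 with a Benjamini-Hochberg adjusted p under 0.05 in edgeR's quasi-likelihood test over all 21114 genes tested. In each library, 17.1% to 34.4% of the genes with 5 to 500 expected counts stood at 0, from which 10.7 to 27.5 reads per RNA molecule were estimated, so low counts may rest on few molecules. Expected counts were means of the other libraries of the same line, whatever their treatment, so differences between libraries can raise this estimate. HES1, a Notch target, fell after MK-0752 (log2FC -2.76, adjusted p = 0.0153) and after the combination in SK-LMS-1 (log2FC -3.37, adjusted p = 0.0227), and was at -1.70 (adjusted p = 0.141) in SK-UT-1B. Per the study's methods, only treatments that had lowered HES1 by qPCR were sequenced, so its fall is no independent check of the drug. Of 14 lymphocyte and myeloid markers, 9 to 11 had 0 counts in each group, CD3D, CD2, MS4A1, and NKG7 among them, and their summed level lay between 0.138 and 6.74 CPM. The monocyte marker CD14 was called between the lines, with 41 to 133 counts in the SK-LMS-1 DMSO libraries (2.90 ± 1.26 CPM) and 0 in both SK-UT-1B DMSO libraries, and its part in the members' differences was not tested. Among 8 smooth muscle markers, 7 could be tested between the DMSO groups of the lines. Of these, 6 were called up in SK-LMS-1 and 1, DES, was called down, beside 17.0% and 14.1% of all genes. MYLK was at 496 ± 33.3 CPM in SK-LMS-1 (SD, n = 4) and 2.21 ± 1.58 in SK-UT-1B (SD, n = 2) after DMSO. DES stood at 0 in SK-LMS-1 and at 7.55 ± 3.13 CPM in SK-UT-1B. MYH11 had at most 2 counts in any DMSO library. Among 7 epithelial markers, 6 could be tested in the same comparison, with 4 called up in SK-LMS-1 and 0 called down. The keratin KRT8 was at 103 ± 5.20 CPM in SK-LMS-1 and at 0 in both SK-UT-1B DMSO libraries. Mean levels of EPCAM and CDH1 after DMSO were at most 0.188 and 0.0398 CPM in either line. ESRP1, not called, was at 0 in SK-LMS-1 DMSO and at 0.294 CPM in SK-UT-1B DMSO.

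The members differed between the lines, by up to 402-fold after DMSO, and none was called after a drug. After DMSO, SK-LMS-1 had 5 members higher and 1 lower among the 9 tested, while over all genes 31.1% were called, 17.0% higher and 14.1% lower. VTCN1 was not tested because its counts were too low. After the combination, the same 5 members were higher and the same 1 lower, beside 25.4% of all genes called, 15.6% higher and 9.88% lower. The members' median log2FC (SK-LMS-1 minus SK-UT-1B) was 1.62 after DMSO and 1.11 after the combination, beside 0.00 and 0.02 over all genes tested. The libraries of the lines did not overlap for 7 of the 9 members in either comparison, beside 51.8% of all genes after DMSO and 64.6% after the combination. The share without overlap over all genes was thus large, and the members' share is not read as particular to them.

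**Figure D1:**
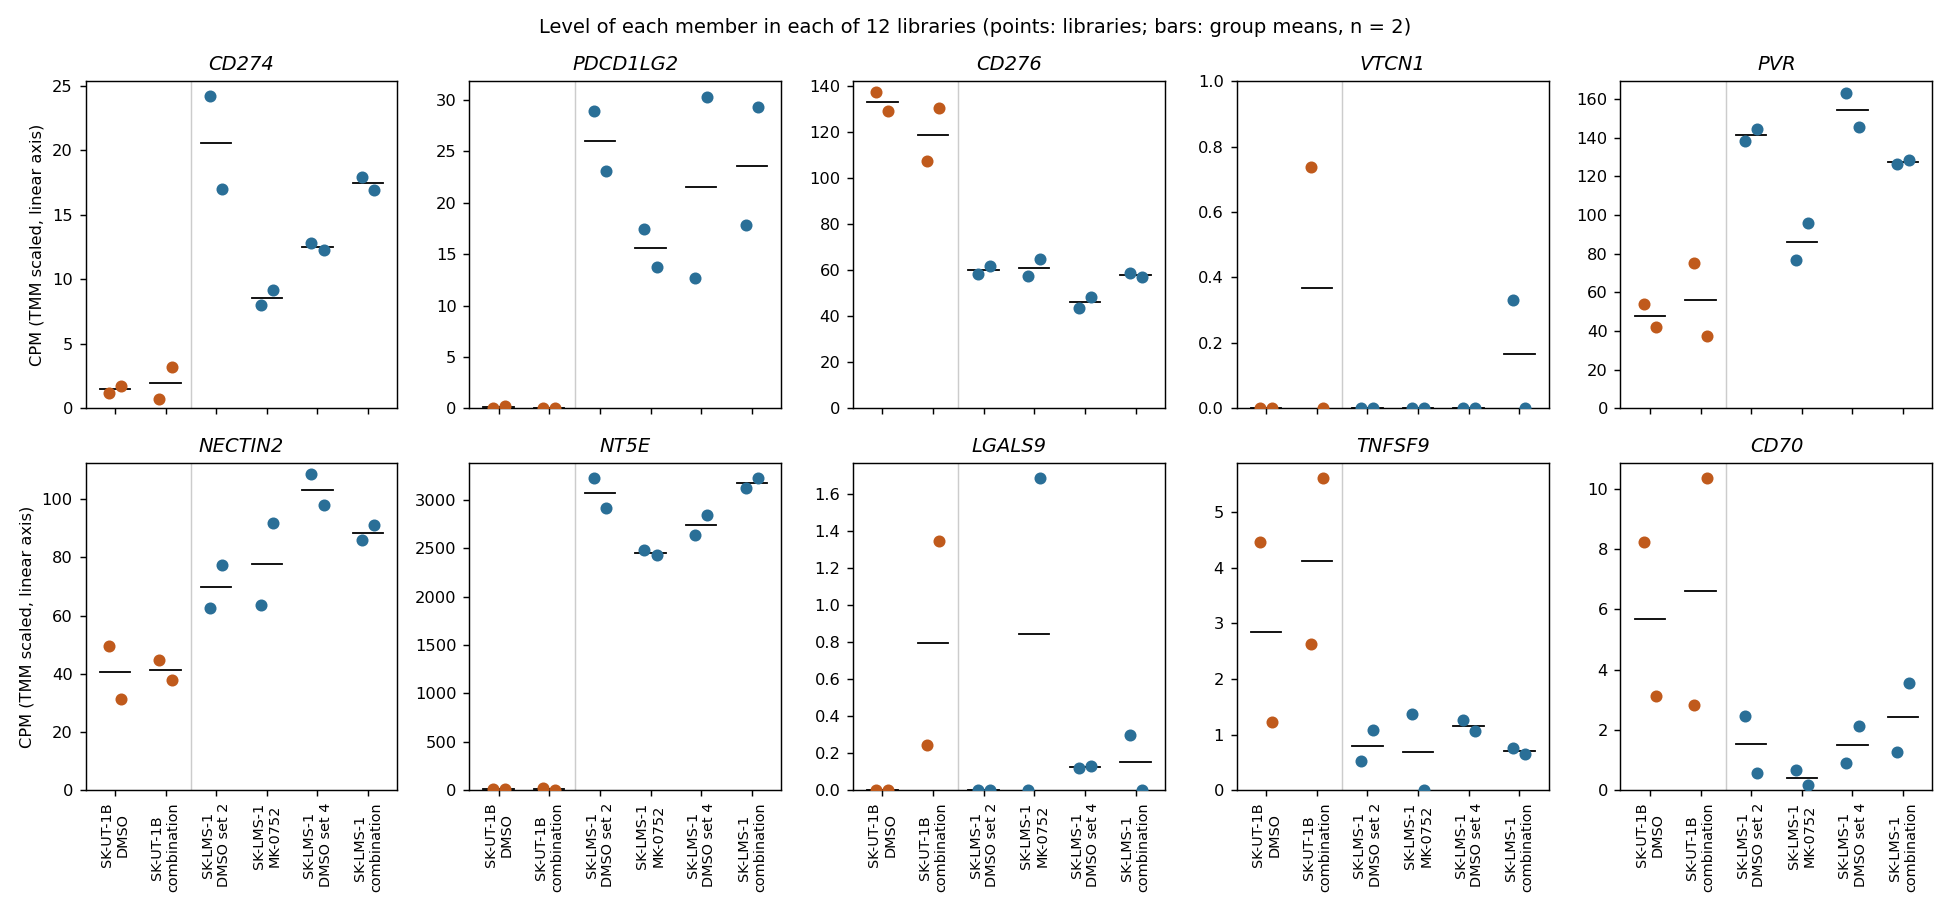
Level of each of the 10 genes in each of the 12 libraries, in CPM on linear axes, with orange points for SK-UT-1B, blue points for SK-LMS-1, and black bars for the means of the 2 libraries of a group. NT5E sits between 2431 and 3223 CPM in SK-LMS-1 and between 3.62 and 17.3 CPM in SK-UT-1B, and CD276 is the member with ample counts that is higher in SK-UT-1B.

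CD274 (ENSG00000120217, chr9:5450503-5470566, plus strand, hg38) was 10.9-fold above its SK-UT-1B level in SK-LMS-1 when both lines had DMSO. Its levels in SK-LMS-1 DMSO were 24.2 and 17.0 CPM in set 2 and 12.8 and 12.2 CPM in set 4. In SK-UT-1B they were 1.18 and 1.75 CPM, from 34 and 66 counts. Every SK-LMS-1 library was above every SK-UT-1B library. The log2FC was 3.45 with an SE of 0.55 (adjusted p = 3.49e-05), and after the combination it was 3.16 with an SE of 0.57 (adjusted p = 0.000188). Without SK-UT-1B library 3-1 the latter was 2.42, and without library 3-3 it was 4.55. At the estimated reads per molecule, the SK-UT-1B libraries held only 1.55 to 4.81 CD274 molecules each, against 12.1 to 55.8 in SK-LMS-1.

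PDCD1LG2 (ENSG00000197646, chr9:5510531-5571282, plus strand) lies 39.964 kb past CD274 and showed the sharper contrast. In SK-LMS-1 DMSO it had 1009, 636, 312, and 1170 counts in libraries 2-1, 2-3, 4-1, and 4-2. In SK-UT-1B it had 0 and 10 counts after DMSO and 0 in both libraries after the combination. PDCD1LG2 was thus detected in every SK-LMS-1 library and in 1 of 4 SK-UT-1B libraries. After DMSO the log2FC was 7.32 with an SE of 0.81 (adjusted p = 6.81e-06), and its size rests on the 10 counts of library 4-2, without which SK-UT-1B stood at 0. After the combination SK-LMS-1 had 595 and 715 counts, and no fold is given against the 0 of SK-UT-1B, where 1 molecule was worth an estimated 17.0 and 18.7 reads.

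The promoter window of CD274, the 250 bases before its start in RefSeq GRCh38.p14, is shown because that gene differed between lines whose JAK1 and IRF1 levels also differed. Capitals mark, in order, a pair of overlapping matches to GAAANNGAA (the core bound by interferon regulatory factors, here on the minus strand, with first bases 207 and 201 before the start), 1 match to TTCNNNGAA (a gamma-activated site, 125 before the start), and 1 to GGGCGG (a GC box, 63 before the start). The window is chr9:5450292-5450541 on the plus strand. RefSeq starts can differ from those of the gene spans given here, and this window ends past the first base of the CD274 span.
CD274: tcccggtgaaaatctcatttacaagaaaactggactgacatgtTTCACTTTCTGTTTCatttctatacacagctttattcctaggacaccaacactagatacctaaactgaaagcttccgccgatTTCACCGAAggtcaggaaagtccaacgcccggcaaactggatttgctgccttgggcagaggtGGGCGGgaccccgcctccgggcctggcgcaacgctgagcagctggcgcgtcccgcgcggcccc
Each motif was searched on both strands in 35116 windows of that length, and 6.88% held GAAANNGAA, 6.57% held TTCNNNGAA, and 42.6% held GGGCGG. Of the 8 members with a RefSeq window, TNFSF9 was the only other one with GAAANNGAA, and none but CD274 held TTCNNNGAA. A match describes letters only. PDCD1LG2 and CD70 had no entry.

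CD276 (ENSG00000103855, chr15:73683966-73714514, plus strand) ran the other way and was 2.53-fold higher in SK-UT-1B after DMSO. It stood at 138 and 129 CPM in SK-UT-1B and at 58.3, 61.8, 43.6, and 48.6 CPM in SK-LMS-1. The groups did not overlap, and the lowest SK-UT-1B library was above the highest SK-LMS-1 library under every treatment, at 108 against 64.8 CPM. The log2FC was -1.34 with an SE of 0.15 (adjusted p = 3.92e-07) after DMSO and -1.04 with an SE of 0.18 (adjusted p = 0.000128) after the combination. Without SK-UT-1B combination library 3-3, the second value was -0.89 and was no longer called. The window before the first of its 2 RefSeq starts is chr15:73684133-73684382 on the plus strand, inside the gene span given above. It is shown because CD276 ran the other way. The capitals mark 7 matches to GGGCGG on either strand, some of which overlap. The window held neither GAAANNGAA nor TTCNNNGAA, and nor did those of PVR, NECTIN2, and NT5E, which were higher in SK-LMS-1.
CD276: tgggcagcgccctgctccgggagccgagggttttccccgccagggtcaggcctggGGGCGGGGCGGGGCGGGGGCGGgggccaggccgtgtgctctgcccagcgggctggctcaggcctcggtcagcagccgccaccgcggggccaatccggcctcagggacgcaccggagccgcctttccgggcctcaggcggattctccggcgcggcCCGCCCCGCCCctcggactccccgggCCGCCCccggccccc
The other B7 gene, VTCN1 (ENSG00000134258, chr1:117143587-117210960, minus strand), had 11 counts in SK-LMS-1 combination library 4-1, 27 in SK-UT-1B combination library 3-1, and 0 in the other 10 libraries. A library's floor of 3 counts corresponds to 0.0777 to 0.123 CPM and covers counting error only. On average, a single molecule was estimated to be worth more reads than that floor, so a 0 does not place VTCN1 below it. Some counts lay under 1 such molecule, such as the 3 and 5 of LGALS9 in SK-LMS-1 DMSO set 4.

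PVR (ENSG00000073008, chr19:44643798-44666162, plus strand) was 3.08-fold above its SK-UT-1B level in SK-LMS-1 with DMSO. Its levels were 139, 145, 163, and 145 CPM in SK-LMS-1 and 53.8 and 42.1 CPM in SK-UT-1B, with no overlap. The log2FC was 1.62 with an SE of 0.23 (adjusted p = 1.87e-05). After the combination it was 1.18 with an SE of 0.25 (adjusted p = 0.00127), and 0.76, no longer called, without SK-UT-1B library 3-3. Of the PVR exons, 19.4% are shared on the same strand with the uncharacterized gene ENSG00000279095 and 1.16% with CEACAM19, so its counts depend on how shared reads were assigned.

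NECTIN2 (ENSG00000130202, chr19:44846175-44889223, plus strand), 180.012 kb past PVR, differed by the least among the 6 called after DMSO. It stood at 62.6, 77.2, 109, and 98.0 CPM in SK-LMS-1 DMSO and at 49.6 and 31.4 CPM in SK-UT-1B DMSO. The groups did not overlap, although 62.6 and 49.6 CPM lay close. The log2FC was 1.07 with an SE of 0.21 (adjusted p = 0.00031) after DMSO, and 1.11 with an SE of 0.23 (adjusted p = 0.000853) after the combination. The call after DMSO was lost without SK-LMS-1 library 2-3 (0.99) and without SK-UT-1B library 4-2 (0.78), and the call after the combination without SK-UT-1B library 3-3 (0.99). A gene on the opposite strand shares 3.42% of its exons, and the strand setting of the counts was not given in the sources used here.

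NT5E (ENSG00000135318, chr6:85449584-85495791, plus strand) was the most abundant member in SK-LMS-1 and differed the most between the lines after DMSO. SK-LMS-1 held 112473, 80609, 64900, and 109568 counts in its DMSO libraries, 88378 and 89482 in its MK-0752 libraries, and 103921 and 78513 in its combination libraries. SK-UT-1B held 205 and 276 counts after DMSO and 633 and 102 after the combination. The lowest SK-LMS-1 library was thus at 2431 CPM and the highest SK-UT-1B library at 17.3 CPM. The log2FC between the lines was 8.65 with an SE of 0.76 (adjusted p = 0.000104) after DMSO, a 402-fold difference, and 8.23 with an SE of 0.76 (adjusted p = 0.000179) after the combination, where it was 9.75 without SK-UT-1B library 3-1 and 7.52 without library 3-3. NT5E took 0.234% to 0.303% of all counts in SK-LMS-1. Per kilobase of exons it ranked 28 of 21068 genes in SK-LMS-1 DMSO and 10074 in SK-UT-1B DMSO. Its RefSeq window, chr6:85449833-85450082 on the plus strand, is shown because NT5E carries the widest fitted difference after DMSO. This window lies inside the gene span given above, whose start comes before the RefSeq start. The capitals mark 1 match to TGACGT (the cyclic AMP response core, 127 before the start) and, after it, 2 to GGGCGG on the minus strand (72 and 49 before the start).
NT5E: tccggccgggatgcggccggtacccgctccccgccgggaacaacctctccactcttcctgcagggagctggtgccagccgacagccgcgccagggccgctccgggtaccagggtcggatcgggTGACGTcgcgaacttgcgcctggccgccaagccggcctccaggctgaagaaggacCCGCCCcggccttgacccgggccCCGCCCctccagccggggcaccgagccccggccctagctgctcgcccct
Among the 35116 windows, 7.10% held TGACGT, and no other member's window did.

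LGALS9 (ENSG00000168961, chr17:27629798-27649560, plus strand) was close to undetected. It had 0 counts in 4 of 8 SK-LMS-1 libraries and 2 of 4 SK-UT-1B libraries, 62 in SK-LMS-1 MK-0752 library 2-3, 38 in SK-UT-1B combination library 3-3, and 3 to 10 in the others. LGALS9 is a gene with near-identical copies, so its counts are uncertain, and no fold is given. TNFSF9 (ENSG00000125657, chr19:6531026-6535924, plus strand) and CD70 (ENSG00000125726, chr19:6583183-6604103, minus strand), 47.258 kb apart, were low in both lines. TNFSF9 had 129 and 46 counts in SK-UT-1B DMSO and 18, 30, 31, and 41 in SK-LMS-1 DMSO. Its log2FC was -1.56 (95% confidence interval -4.34 to 1.22, adjusted p = 0.37), so a difference in either direction was within its error, and after the combination it was -2.54 (-6.07 to 0.98, adjusted p = 0.277). CD70 had 238 and 118 counts in SK-UT-1B DMSO and 86, 16, 22, and 82 in SK-LMS-1 DMSO. Its log2FC was -1.90 (95% confidence interval -3.83 to 0.02, adjusted p = 0.108), and after the combination -1.45 (-3.81 to 0.90, adjusted p = 0.348). With a library left out, CD70 ran from -2.59 to -1.10 after DMSO and from -2.38 to -0.24 after the combination. TNFSF9 then ran from -2.21 to -0.40 and from -3.01 to -1.89. Neither passed the test, and at most 8.44 molecules of TNFSF9 and 15.6 of CD70 were estimated in any library.

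**Figure D2:**
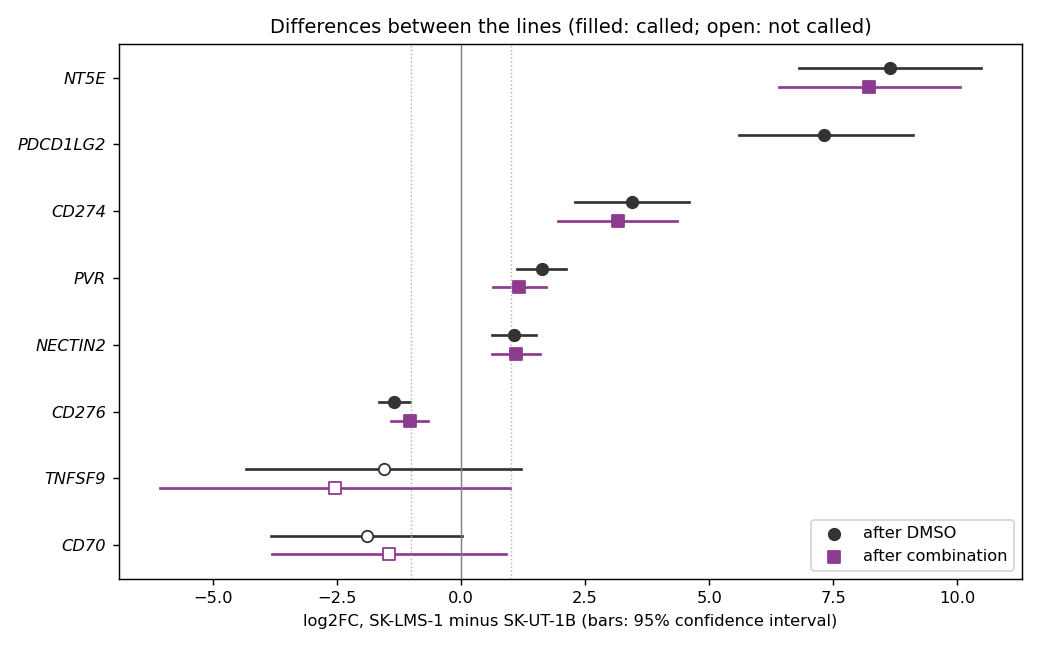
Difference between the lines for the 8 members with a fitted value, as log2FC (SK-LMS-1 minus SK-UT-1B) with 95% confidence intervals, circles after DMSO and squares after the combination, filled where called, with dotted lines at -1 and 1. PDCD1LG2 has no square because SK-UT-1B stood at 0 after the combination, and the intervals of TNFSF9 and CD70 cross 0 in both comparisons.

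Compared per kilobase of exons, which allows for gene length only roughly, the order of the members differed between the lines. In SK-LMS-1 DMSO (n = 4) NT5E led at 641 ± 54.0 CPM per kilobase (SD), followed by NECTIN2 at 23.2 ± 5.52 and PVR at 14.2 ± 1.01. PDCD1LG2 at 9.76 ± 3.30 and CD276 at 9.68 ± 1.54 overlapped and could not be ordered. CD274 followed at 4.03 ± 1.34, then CD70 at 0.99 ± 0.60 and TNFSF9 at 0.60 ± 0.20, which overlapped, and LGALS9 and VTCN1 were at or near 0. In SK-UT-1B DMSO (n = 2) CD276 led at 24.3 ± 1.09, followed by NECTIN2 at 10.8 ± 3.43 and PVR at 4.60 ± 0.80. PVR overlapped CD70 at 3.72 ± 2.36, CD70 overlapped TNFSF9 at 1.74, and TNFSF9 overlapped NT5E at 1.59 ± 0.03. CD274 was at 0.36 ± 0.10 there. Each exon length is that of all annotated exons of a gene together, 10.4 kb for PVR, so levels per kilobase may be low. In plain CPM, PVR was above NECTIN2 in SK-LMS-1 DMSO, at 148 against 86.6.

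**Figure D3:**
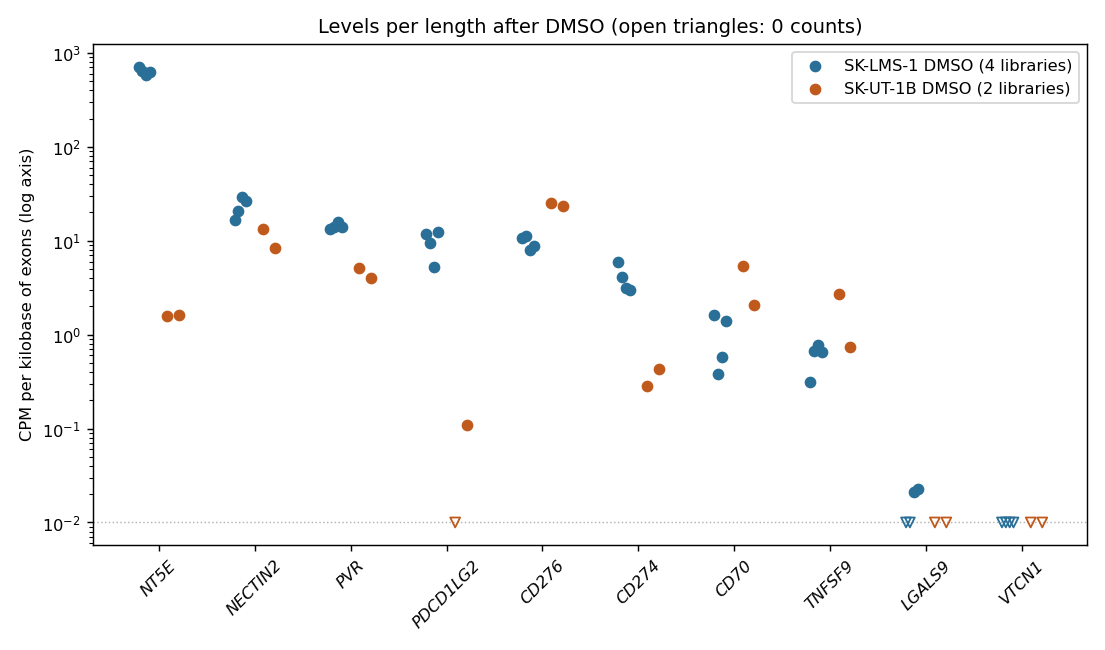
Level per kilobase of exons of each member after DMSO on a log axis, blue for the 4 SK-LMS-1 libraries and orange for the 2 SK-UT-1B libraries, with open triangles at the dotted line for 0 counts. NT5E stands at 641 CPM per kilobase in SK-LMS-1 and 1.59 in SK-UT-1B, and CD276 is the highest member in SK-UT-1B at 24.3.

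No member was called after any treatment, beside 0.559% of all genes for the combination in SK-UT-1B, 0.251% for MK-0752 in SK-LMS-1, and 0.0237% for the combination in SK-LMS-1. At an unadjusted p under 0.05, edgeR counted 1, 2, and 0 members in these comparisons, among 2214, 1354, and 914 genes. DESeq2 also called 0 members in each, beside more genes in all than edgeR in the first 2. It called 369 against 118 for the combination in SK-UT-1B and 131 against 53 for MK-0752 in SK-LMS-1.

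After MK-0752 in SK-LMS-1, CD274 was at 8.02 and 9.16 CPM against 24.2 and 17.0 CPM in DMSO set 2. Both MK-0752 libraries were below all 4 SK-LMS-1 DMSO libraries. The log2FC was -1.26 (95% confidence interval -2.37 to -0.16, unadjusted p = 0.0273 and adjusted p = 0.659 in edgeR's test), which did not pass over all genes. It was called when only the 4 libraries of the comparison were fitted (log2FC -1.24, adjusted p = 0.0205), and it was -0.95 (adjusted p = 0.59) against all 4 DMSO libraries. PVR was at 76.7 and 96.0 CPM after MK-0752 against 139 and 145 CPM in DMSO set 2. Its libraries did not overlap either, and the log2FC was -0.71 (95% confidence interval -1.24 to -0.19, unadjusted p = 0.0106 and adjusted p = 0.464 in edgeR's test). The adjusted p was 0.00114 with only the 4 libraries of the comparison and 0.0407 with every gene of at least 1 count kept, at log2FC of -0.70 in both, under the fold needed for a call. PDCD1LG2 had a log2FC of -0.74 with an SE of 0.58 (adjusted p = 0.823) and NT5E one of -0.32 (-1.65 to 1.00, adjusted p = 1). CD276 (0.03, -0.35 to 0.40) and NECTIN2 (0.15, -0.33 to 0.63) had intervals within 1 of 0. CD70, at 24 and 6 counts against 86 and 16, had a log2FC of -1.86 (-4.31 to 0.57, adjusted p = 0.806 in edgeR's test). With a library left out it ran from -3.20 to -0.47. TNFSF9 was at -0.22 (-3.58 to 3.14). Of the 9 members tested, 4 did not overlap between MK-0752 and DMSO, beside 34.5% of all genes.

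After the combination in SK-LMS-1, CD274 was at 17.9 and 16.9 CPM against 12.8 and 12.2 CPM in DMSO set 4, above both, although within the range of the 4 DMSO libraries. The log2FC was 0.48 (95% confidence interval -0.61 to 1.57, adjusted p = 1). CD276 was at 59.1 and 56.9 CPM against 43.6 and 48.6 CPM, with a log2FC of 0.33 (-0.05 to 0.71, adjusted p = 0.907). NT5E had a log2FC of 0.21 (-1.11 to 1.54), PDCD1LG2 0.13 (-1.12 to 1.38), PVR -0.28 (-0.80 to 0.24), and NECTIN2 -0.22 (-0.70 to 0.26), with adjusted p values of 0.962 or above. Here 6 of 9 members did not overlap, beside 32.4% of all genes. The intervals of CD276, PVR, and NECTIN2 exclude a log2FC of 1 in either direction. The DMSO sets of SK-LMS-1 themselves did not overlap for 6 of 9 members either, beside 29.5% of all genes, so the untreated sets separated as many members as the combination did. Among them were CD276 (log2FC of set 4 minus set 2 -0.38, adjusted p = 0.794), NECTIN2 (0.56, adjusted p = 0.794), and CD274 (-0.72, adjusted p = 0.795), with PVR, NT5E, and LGALS9 the others. Between the sets 0 members were called, beside 0.0% of all genes, with 2 members and 1197 genes at an unadjusted p under 0.05.

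In SK-UT-1B, the combination libraries lay far apart for several members. NT5E was at 17.3 CPM in library 3-1 and 3.62 CPM in library 3-3, with 7.10 and 7.32 CPM after DMSO. Library 3-1 was thus above and library 3-3 below both DMSO libraries. The log2FC was 0.55 (95% confidence interval -0.89 to 1.99, adjusted p = 0.936), and leaving out library 3-1 gave a called decrease (-1.02, adjusted p = 0.00059) where leaving out library 3-3 gave a called increase (1.26, adjusted p = 1.05e-06). Each of these fits leaves 1 combination library, which is assumed to vary like the other groups. PVR followed the same order, at 75.3 CPM in library 3-1 and 37.3 CPM in library 3-3 beside 53.8 and 42.1 CPM after DMSO (log2FC 0.23, -0.29 to 0.76). CD274 went the other way, at 0.738 CPM in library 3-1 and 3.19 CPM in library 3-3 (log2FC 0.41, -0.74 to 1.56), as did CD70, at 2.84 and 10.4 CPM, and TNFSF9, at 2.62 and 5.61 CPM. CD276 (log2FC -0.16, -0.54 to 0.21) and NECTIN2 (0.02, -0.46 to 0.51) varied less and their intervals exclude a log2FC of 1 in either direction. LGALS9 was the 1 member of 9 without overlap, beside 32.1% of all genes, and both DMSO libraries stood at 0.

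**Figure D4:**
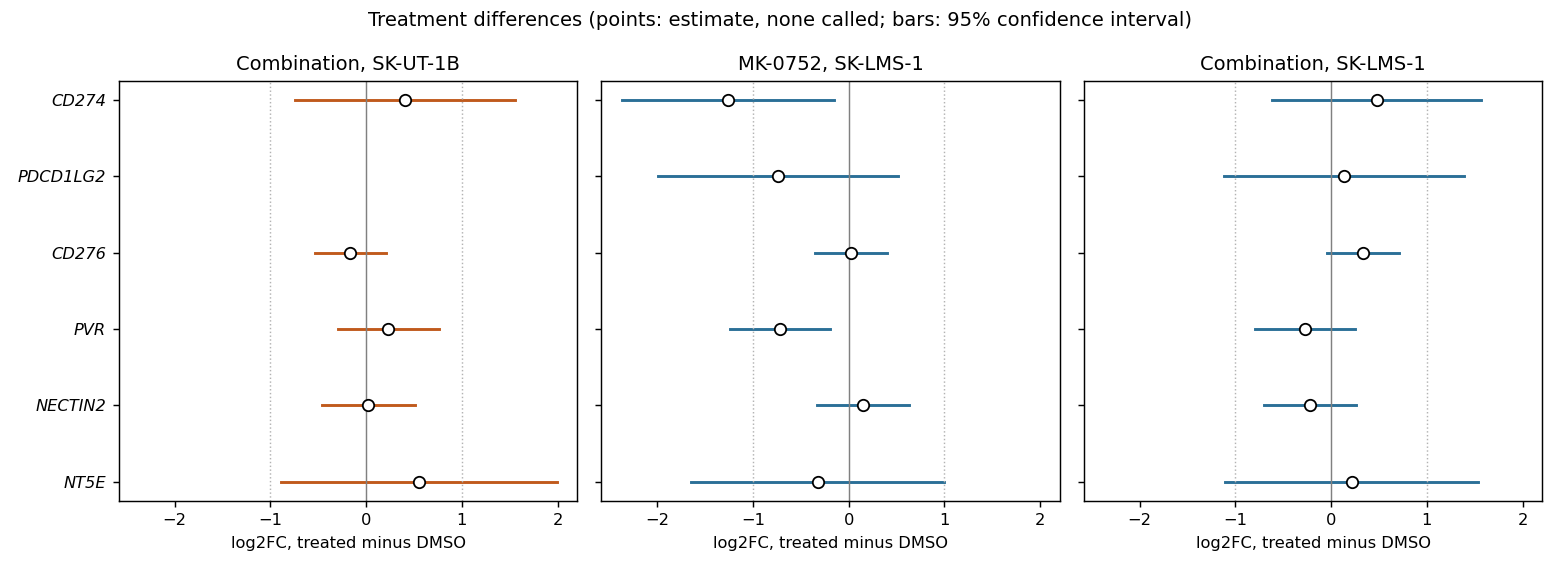
Treatment differences of 6 members as log2FC (treated minus DMSO) with 95% confidence intervals, in 3 panels for the combination in SK-UT-1B, MK-0752 in SK-LMS-1, and the combination in SK-LMS-1, with dotted lines at -1 and 1. No point is called, the intervals of CD274 and PVR after MK-0752 lie below 0, and PDCD1LG2 has no value in SK-UT-1B, where it had 10 counts in 1 library.

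The combination effect did not pass the test of a difference between the lines for any member, beside 0.232% of all genes, with 1 member and 1619 genes at an unadjusted p under 0.05. For CD276 the difference of effects (SK-UT-1B minus SK-LMS-1) was -0.49 (95% confidence interval -1.03 to 0.04, adjusted p = 0.667), and for NT5E it was 0.34 (-1.61 to 2.29, adjusted p = 1.00), between -1.20 and 1.05 with a library left out. In SK-LMS-1, the effect of MK-0752 was also set against that of the combination, each relative to its own DMSO set, at unmatched amounts of MK-0752. No member was called, beside 0.0379% of all genes, with 1 member and 1094 genes at an unadjusted p under 0.05.

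The neighbours of the members, the tested protein-coding genes whose start lies within 500 kb, were chosen after the members' values were seen. Of 5 neighbours of CD274, after DMSO PDCD1LG2 was called higher and PLGRKT lower in SK-LMS-1 (log2FC -1.03, adjusted p = 0.00823), but PLGRKT stood at 0.18 (adjusted p = 0.758) after the combination. JAK2, a kinase of the interferon pathway that lies before CD274, stood at -0.10 (adjusted p = 0.821) after DMSO. RIC1 (-0.96, adjusted p = 0.000651) and ERMP1 (0.75, adjusted p = 0.00658) passed on p but not on fold after DMSO. After the combination both were called, at -1.59 (adjusted p = 3.26e-05) and 1.499 (adjusted p = 4.52e-05). The neighbours of NT5E, SNX14 (0.70, adjusted p = 0.0254) and SYNCRIP (-0.89, adjusted p = 0.000255), likewise missed only on fold after DMSO, and after the combination SNX14 was called higher (1.45, adjusted p = 0.00033) and SYNCRIP was at -0.80 (adjusted p = 0.00447). Of 23 neighbours of PVR, 5 were higher and 2 lower after DMSO, which is near the 31.1% called over all genes.

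**Figure D5:**
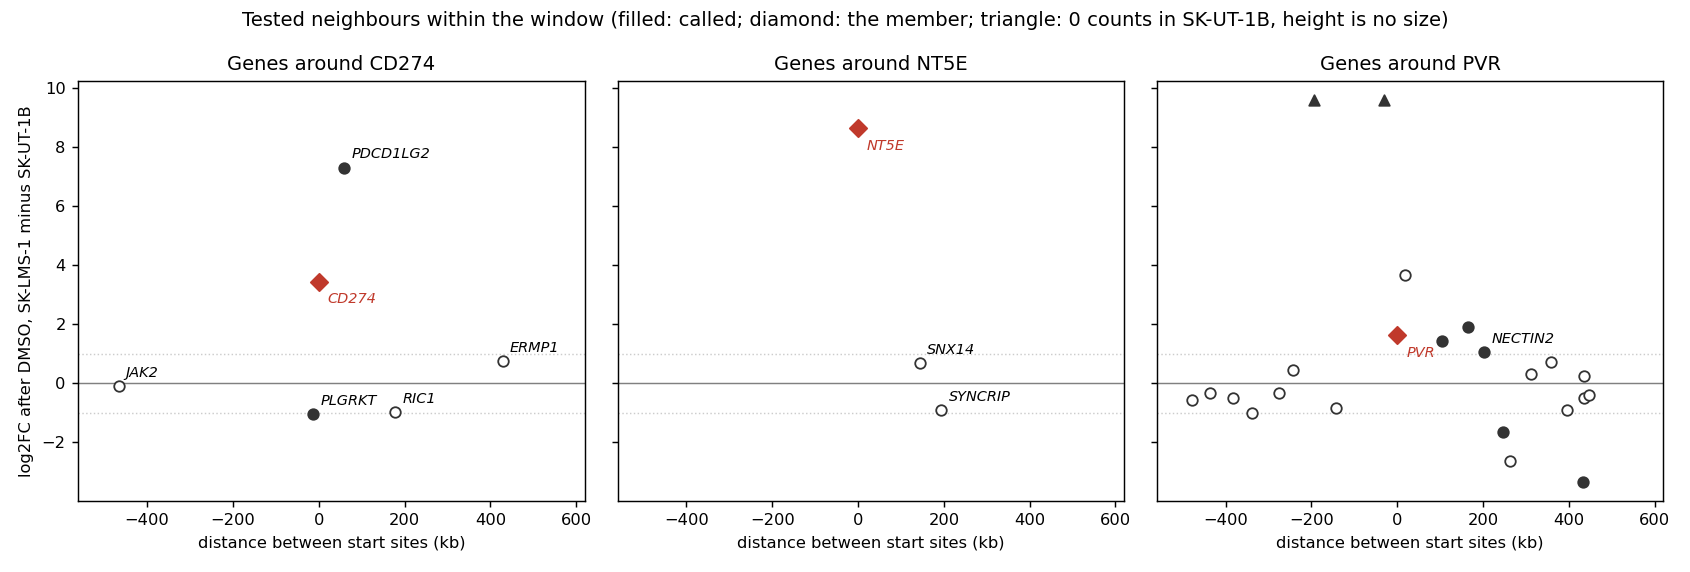
Difference between the lines after DMSO (log2FC, SK-LMS-1 minus SK-UT-1B) of the tested genes within 500 kb of CD274, NT5E, and PVR against the distance between start sites in kb, filled where called, with the member as a red diamond. Triangles mark genes at 0 in SK-UT-1B, and their height is no size. NT5E stands at 8.65 while its 2 neighbours lie between -1 and 1, and PDCD1LG2 is the called neighbour above CD274.

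Other genes of these pathways were counted in the same way, and none of the listed genes was called after a treatment. Of 30 tested genes for interferon gamma signaling and control of CD274, out of 31, SK-LMS-1 DMSO had 9 higher and 3 lower, with a median log2FC of 0.30, beside 17.0% higher and 14.1% lower over all genes. JAK1, the kinase that interferon receptors need, was at 379 ± 24.4 CPM in SK-LMS-1 and 3.73 ± 1.26 CPM in SK-UT-1B (log2FC 6.65, adjusted p = 5.63e-15). JAK1 had 8500 to 15023 counts in each SK-LMS-1 library and 82 to 174 in each SK-UT-1B library. SOCS3, a feedback inhibitor of JAK kinases, was at 35.6 ± 2.63 CPM in SK-LMS-1 and at 0 in SK-UT-1B, and HIF1A, which responds to low oxygen, had a log2FC of 1.81. MYC (-1.33), the cytokine signaling gene NFKB1 (-1.19), and CMTM4 (-1.41), whose protein stabilizes PD-L1, were lower. IRF1, named after its values were seen, was at 40.5 ± 5.19 CPM in SK-LMS-1 and 7.20 ± 0.92 CPM in SK-UT-1B (log2FC 2.49, adjusted p = 1.51e-06), whereas JAK2 was not called. JAK1 and CD274 were thus both lower in SK-UT-1B, and whether these levels are linked was not tested.

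Of 12 tested genes that make, remove, or sense adenosine, out of 16 and with NT5E among them, SK-LMS-1 DMSO had 3 higher and 3 lower, beside 17.0% and 14.1% over all genes. ENPP1, an ectoenzyme that makes AMP, the substrate of NT5E, was at 476 ± 44.4 CPM in SK-LMS-1 and 10.1 ± 6.32 CPM in SK-UT-1B (log2FC 5.56, adjusted p = 1.3e-06). The adenosine receptor ADORA2B was higher (1.27, adjusted p = 0.00168). ADORA1, another adenosine receptor, was at 0 in all 8 SK-LMS-1 libraries and at 9.71 ± 2.33 CPM in SK-UT-1B DMSO. ALPL and ENTPD1 were lower in SK-LMS-1, ENTPD1 (CD39, which feeds NT5E with AMP) with 34 and 4 counts in SK-UT-1B DMSO and 0 in SK-LMS-1 DMSO. ENTPD1 had 27 and 33 counts in SK-LMS-1 after MK-0752, and after the combination 11 and 2 in SK-LMS-1 and 0 in SK-UT-1B, so its direction did not hold across treatments. After the combination, 4 genes of the list were higher and 1 lower, beside 15.6% and 9.88% over all genes.

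Of 30 tested other ligands for T and natural killer cells, out of 38, SK-LMS-1 DMSO had 15 higher and 2 lower, with a median log2FC of 2.17, and the combination libraries 12 and 3, beside 17.0% and 14.1% over all genes after DMSO and 15.6% and 9.88% after the combination. LGALS3, a galectin, had a log2FC of 3.18 (adjusted p = 3.99e-11) and CD47, the signal against phagocytosis, one of 2.83 (adjusted p = 5.78e-10). TNFRSF14, the ligand of BTLA, stood at 16.2 ± 3.45 CPM in SK-LMS-1 and at 0 in SK-UT-1B. NCR3LG1 (B7-H6), which activates natural killer cells, was lower in SK-LMS-1 (-1.82, adjusted p = 1.25e-05), and FGL1, a ligand of LAG3, was at 0 in all SK-LMS-1 libraries and at 4.88 ± 2.25 CPM in SK-UT-1B. BTN3A1, a butyrophilin sensed by gamma delta T cells and named after its values were seen, was at 57.2 ± 1.38 CPM after MK-0752 and 27.6 ± 3.44 CPM in DMSO set 2 (log2FC 1.05, adjusted p = 0.294), without overlap but not called. The B7 ligands CD80, CD86, ICOSLG, and HHLA2 had 0 counts in all 12 libraries. VSIR (VISTA), a B7 family ligand too, had 8 to 296 counts in every library and was higher in SK-LMS-1 after DMSO (log2FC 2.63, adjusted p = 0.02) but not called after the combination (0.58, adjusted p = 0.668).

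Of the 12 receptors and partners of the members, 5 were tested and 2 called higher in SK-LMS-1, beside 17.0% of all genes. PDCD1, TIGIT, PVRIG, CD27, and TMIGD2 had 0 counts in all 12 libraries. CD96, a receptor of PVR known from T and natural killer cells, was at 14.3 ± 7.12 CPM in SK-LMS-1 DMSO, with 252 to 802 counts in every SK-LMS-1 library and 0 in every SK-UT-1B library. PTPRC, a leukocyte marker, and CD3E, a T cell marker, had at most 47 and 1 counts in the SK-LMS-1 libraries. Of the other lymphocyte and myeloid markers there, CD79A reached 59 counts, CSF1R 36, and CD14 133. The source of the CD96 reads was not tested. CD44, a partner of galectin-9, was at 2564 ± 162 CPM in SK-LMS-1 and 18.1 ± 1.06 CPM in SK-UT-1B (log2FC 7.14, adjusted p = 5.02e-17).

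With the mean of each line removed, the protein-coding gene whose log2 CPM ran closest to NT5E over the 12 libraries was ATF4 (Pearson's r 0.97), among 11494 genes with a mean of at least 100 counts. For PVR it was SLC3A2 (0.96), for CD276 RTTN (0.95), for CD274 STEAP3 (0.92), for NECTIN2 ZNF79 (0.92), for PDCD1LG2 NUP133 (0.90), for CD70 CERS2 (0.89), and for TNFSF9 MROH1 (0.82). PAM (0.96) and KLF14 (0.96) came next for NT5E. These are descriptions over 12 libraries that share treatments and depth, the best of many genes, and the NT5E values include the opposed SK-UT-1B libraries 3-1 and 3-3.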

How the data were processed

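The authors trimmed stranded, ribosome-depleted single-end reads with Trim Galore 0.3.7, aligned them to hg38 with STAR 2.7.9a, and deposited raw read counts per gene, without normalization; the annotation, strand setting and duplicate removal are not given in the sources used here. Here, edgeR 4.0.16 in R 4.3.3 (TMM, filterByExpr, robust quasi-likelihood fit over 6 groups of 2 libraries) tested 21114 genes, with Benjamini-Hochberg adjustment over all of them, in 8 comparisons, after a check on simulated data. Names, coordinates and exon lengths came from GENCODE 44 on hg38, whose gene identifier version differed for 2 members, and promoters from RefSeq. Depth was 25250057 to 40709885 counts per library. The members and the gene lists were chosen with earlier results of these data known. Called genes of the lists, the members aside, were mainly named by the lowest adjusted p, up to 3 per list and direction. Not all of those genes are printed, and IRF1, BTN3A1, and VSIR lay outside that rule. Likeness used log2(CPM + 0.5). A group at or under 3 counts in each library was taken as at the floor, and no fold against it is given. Alternatives were DESeq2 1.42.0, its size factors, other filters (any gene with 1 count, or a mean of 50 counts or more), fewer or more libraries, a replicate block, and each library left out.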

Additional observations from a re-analysis of the deposited data

Results flagged for a closer look

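The libraries of CD274 and NT5E lay in opposite directions under the drugs in SK-LMS-1. For each, both MK-0752 libraries were below both DMSO set 2 libraries and both combination libraries were above both DMSO set 4 libraries. The difference of the log2FC (MK-0752 minus combination) was -1.74 for CD274 (95% confidence interval -3.29 to -0.19, unadjusted p = 0.0299 and adjusted p = 0.911 in edgeR's quasi-likelihood test) and -0.54 for NT5E (-2.41 to 1.34, adjusted p = 1.00). Neither difference passed the test over all genes. In DMSO alone, CD274 was at 20.6 ± 5.09 CPM in set 2 and 12.5 ± 0.42 CPM in set 4 (SD, n = 2), and the part of the sets in the difference was not tested. Among the 4 SK-LMS-1 DMSO libraries, none of the 9 members with any counts had a library far from the others by Dixon's 95% critical value.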

How the results depend on the processing

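The 6 member calls between the lines after DMSO held under DESeq2, its size factors, both other filters, fits of fewer libraries, and DMSO set 4 alone, but the NECTIN2 call was lost without SK-LMS-1 library 2-3 (log2FC 0.99) or SK-UT-1B library 4-2 (0.78). With a library left out, 3 to 6 members were called between the lines after the combination (3 without SK-UT-1B library 3-3). The genes called in all then ran from 4456 to 5086, and after DMSO from 5697 to 6386. Over the settings that left out no single library they ran from 5172 to 5879 and, after DMSO, from 4858 to 6956. Members called for the combination in SK-UT-1B, and for its effect between lines, ran from 0 to 1, NT5E with log2FC -1.02 to 1.26 and -1.20 to 1.05. Keeping every gene with 1 count called 1 member in each of these comparisons, PDCD1LG2, from 10 counts in 1 library. Only the libraries of the comparison called 1 member after MK-0752, CD274. Among the treatment comparisons, uncalled log2FC values that crossed 0 with a library left out also were, in SK-UT-1B, CD274 (-0.99 to 1.08), PVR (-0.39 to 0.65), NECTIN2 (-0.27 to 0.35), TNFSF9 (-0.12 to 1.71), and CD70 (-0.999 to 1.03), after MK-0752 CD276 (-0.060 to 0.11), and NECTIN2 (-0.14 to 0.39), and after the combination in SK-LMS-1 PDCD1LG2 (-0.36 to 0.90) and CD70 (-0.26 to 1.43). TNFSF9 after MK-0752 and LGALS9 after the combination in SK-LMS-1 crossed 0 too, where a left-out library put a group at 0 counts and the value has no size. A lone library was assumed to vary like the other groups. With all 4 DMSO libraries as control, NECTIN2 was at -0.16 after MK-0752 and 0.031 after the combination, and PDCD1LG2 at -0.0093. The causes were not tested. The replicate block left the members called at 0 for the combination in SK-LMS-1 (10 genes in all against 5) and at 6 between the lines (4858 genes against 6562), and same-numbered libraries did not deviate together (correlations -0.0118 and 0.00583). Over the settings that left out no single library, fits of fewer groups included, the genes called ran from 81 to 420 (118 in the test as reported) for the combination in SK-UT-1B, 35 to 183 (53) for MK-0752, 1 to 73 (5) for the combination in SK-LMS-1, 0 to 76 (0) between DMSO sets, 24 to 303 (49) for the effect between lines, and 3 to 89 (8) for the effects within SK-LMS-1. With a library left out, the same counts ran from 140 to 812, 14 to 45, 0 to 29, 0 to 39, 21 to 498, and 3 to 22, and the counts of 812 and 498 were those without SK-UT-1B combination library 3-3. With 2 libraries a group and 10.7 to 27.5 reads per molecule, LGALS9, VTCN1, TNFSF9, and CD70 are too thinly covered for small differences.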
